A study of Mus musculus with 6 samples.

Results

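Srf, the 3 genes of the myocardin family (Myocd, Mrtfa and Mrtfb) and the homeodomain gene Hopx were followed in mouse hearts on 6 Illumina bead arrays. Every probe annotated with 1 of these 5 symbols was taken, which gave 13 of 45281 probes. Of the 13 probes, 10 lay above the intensity filter described below, and they represented 4 of the 5 genes. The hearts came from FVB mice labelled as 8 weeks old, although the series' design text gives the age in years, and were taken 3 weeks after surgery. Transgenic mice carried a heart-specific JMJD2A transgene and had thoracic aortic constriction (TAC, a model of pressure overload made by narrowing the aorta) on 2 arrays or a sham operation on 1 array. Wild-type mice of the same background had TAC on 2 arrays or a sham operation on 1 array. JMJD2A is a histone lysine demethylase encoded by Kdm4a. The promoter that drives the transgene, the number of founder lines and whether an array holds 1 heart or a pool are not given in the labels, so p-values measure only the spread between these arrays, part of which may be technical.

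SRF (serum response factor) is a MADS-box transcription factor that binds the CArG box, a short A/T-rich DNA element found near many muscle and cytoskeletal genes. It acts through partners: myocardin is a strong coactivator made in heart and smooth muscle, while the related MRTF-A and MRTF-B are held in the cytoplasm by monomeric actin and enter the nucleus when actin polymerises. HOPX is a small homeodomain protein that does not bind DNA by itself, and it restrains SRF-dependent transcription in the developing heart together with histone deacetylases.

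Promoter sequences from RefSeq (GRCm38.p6; 250 bases before to 50 after a gene's start, on the gene's strand) are shown for the members that hold a CArG box, because this is the element that SRF binds. Srf is known to regulate itself through such elements. The CArG box, a motif of 10 letters searched by its full consensus with no mismatch and the same on both strands, is in capitals. The Srf promoter (chr17:46556113-46556412, minus strand) held 2 CArG boxes, which began at positions -82 and -62 from the start. The Hopx promoter at chr5:77115074-77115373 (minus strand) held 1, at -83.
Srf: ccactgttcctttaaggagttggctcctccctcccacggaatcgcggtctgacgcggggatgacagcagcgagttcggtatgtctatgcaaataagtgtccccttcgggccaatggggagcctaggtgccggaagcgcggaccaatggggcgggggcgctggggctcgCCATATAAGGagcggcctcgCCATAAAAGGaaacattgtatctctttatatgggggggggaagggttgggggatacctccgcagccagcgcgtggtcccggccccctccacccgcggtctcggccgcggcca
Hopx: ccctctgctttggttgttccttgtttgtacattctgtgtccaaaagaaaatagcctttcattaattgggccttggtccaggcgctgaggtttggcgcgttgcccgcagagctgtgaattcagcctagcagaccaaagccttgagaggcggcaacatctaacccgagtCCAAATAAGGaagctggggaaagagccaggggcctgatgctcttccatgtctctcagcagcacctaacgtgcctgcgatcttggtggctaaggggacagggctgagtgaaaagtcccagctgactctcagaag

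Of all 32851 promoters in that table, 535 (1.63%) held a CArG box. A second Hopx start (chr5:77095218-77095517), the 2 Mrtfa starts and the 3 Mrtfb starts held none in this window, and the Myocd promoter was not analysed here. A match describes the letters and is not evidence of a bound site. For comparison, short stretches around the box are given for 4 genes whose expression is described below, the actin gene Acta1, the LIM protein genes Fhl1 and Fhl2, and the smooth muscle light chain gene Myl9. Fhl2 held a box before each of 2 starts.
Acta1 (chr8:123894829-123894858): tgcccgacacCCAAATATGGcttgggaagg
Fhl1 (chrX:56779571-56779600): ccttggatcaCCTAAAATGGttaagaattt
Fhl2 (chr1:43196838-43196867): catttagagaCCAAAAAAGGcttgcaggag
Fhl2 (chr1:43163973-43164002): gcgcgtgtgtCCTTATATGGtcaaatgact
Myl9 (chr2:156775293-156775322): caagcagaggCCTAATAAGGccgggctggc

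The deposited intensities ran from 30.83 to 25873 with array medians between 56.3 and 56.4, and values are given below as log2 intensity unless an intensity is named. A gene was represented by its brightest probe and tested in limma when that probe lay above the 50th percentile of annotated probes (an intensity of 58.7), which left 11166 genes. A gene passed at a Benjamini-Hochberg adjusted p below 0.05, and ± after a difference is its standard error (SE). Kdm4a lay between 6.45 and 6.75 on all 6 arrays, with a transgenic minus wild-type difference of 0.01 ± 0.12 (adjusted p = 0.994). Its probes' position relative to the transgene is not given, so it does not check the genotype labels. Xist, the RNA that coats an inactive X chromosome, was low in the transgenic sham (5.41) and wild-type TAC 2 (5.38) arrays and high (10.36 to 11.03) in the other 4. Both arrays were kept in the fits, and values without them are given where they matter.

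Hopx (chr5:77086986-77115123 in GRCm38.p6, protein coding) was lower in every transgenic array than in every wild-type array. Its tested probe stood at 10.80 and 10.47 in the transgenic TAC arrays and 10.89 in the transgenic sham array, against 12.06 and 12.39 in the wild-type TAC arrays and 12.86 in the wild-type sham array. As intensities these were 1787, 1415 and 1899 in transgenic hearts, against 4281, 5370 and 7457 in wild-type hearts. The 3 transgenic values lay close together and the brightest of them was below the dimmest wild-type value, so the genotypes did not overlap. By group the levels ran upward through transgenic TAC (10.64), then the transgenic sham array, then wild-type TAC (12.23), to the wild-type sham array, and the step between the genotypes was the largest. Over both surgeries Hopx averaged 10.72 ± 0.22 in transgenic and 12.44 ± 0.40 in wild-type arrays (SD, n = 3 each).

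In the model of surgery plus genotype Hopx fell by 1.72 ± 0.15 on the log2 scale (95% interval -2.06 to -1.38), a level 3.29-fold lower in transgenic arrays (limma, adjusted p = 0.00134). It ranked 2 by size among the 32 genes that passed and were lower in transgenic hearts, and 7 by p among all 11166. Hopx was the 1 of 4 tested members that passed, while 0.949% of all genes passed, 0.663% as higher and 0.287% as lower in transgenic hearts. With 1 array left out at a time the difference stayed between -1.85 and -1.59 and the adjusted p between 0.000372 and 0.0236. The second Hopx probe lay between 5.01 and 5.37 on all arrays, far below the filter and without order between the genotypes. Averaging it in by a median over the 2 probes gave -0.79 and an adjusted p of 0.0704.

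After TAC alone, the difference in Hopx was -1.59 ± 0.19 (2 against 2 arrays, 3.02-fold lower in transgenic arrays, adjusted p = 0.0200), 1 of 4 members where 0.206% of genes passed, and 0.0627% as lower. This call was lost when either wild-type TAC array was left out (adjusted p = 0.229 for wild-type TAC 1 and 0.550 for wild-type TAC 2). In the sham pair, 1 array against 1 without a test, Hopx differed by -1.97 on the log2 scale (transgenic minus wild type). A sham difference of at least 1 in either direction was seen for 1.04% of genes. The sham arrays also differed in Xist (5.41 in transgenic, 10.50 in wild type), so genotype and Xist level cannot be told apart in this pair.

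The genotypes also differed in Hopx among arrays of like Xist level. Among the 4 arrays of high Xist, the transgenic TAC arrays stood at a mean of -1.83 relative to the wild-type TAC 1 and sham arrays. Between the 2 arrays of low Xist, transgenic sham stood at -1.50 relative to wild-type TAC 2. These values mix TAC and sham arrays and carry no test. Fitted without both arrays of low Xist, the genotype difference was -1.43 with an adjusted p of 0.515, and 0 of 11166 genes passed in that fit, in which 2 transgenic TAC arrays met 1 wild-type TAC array.

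**Figure D1:**
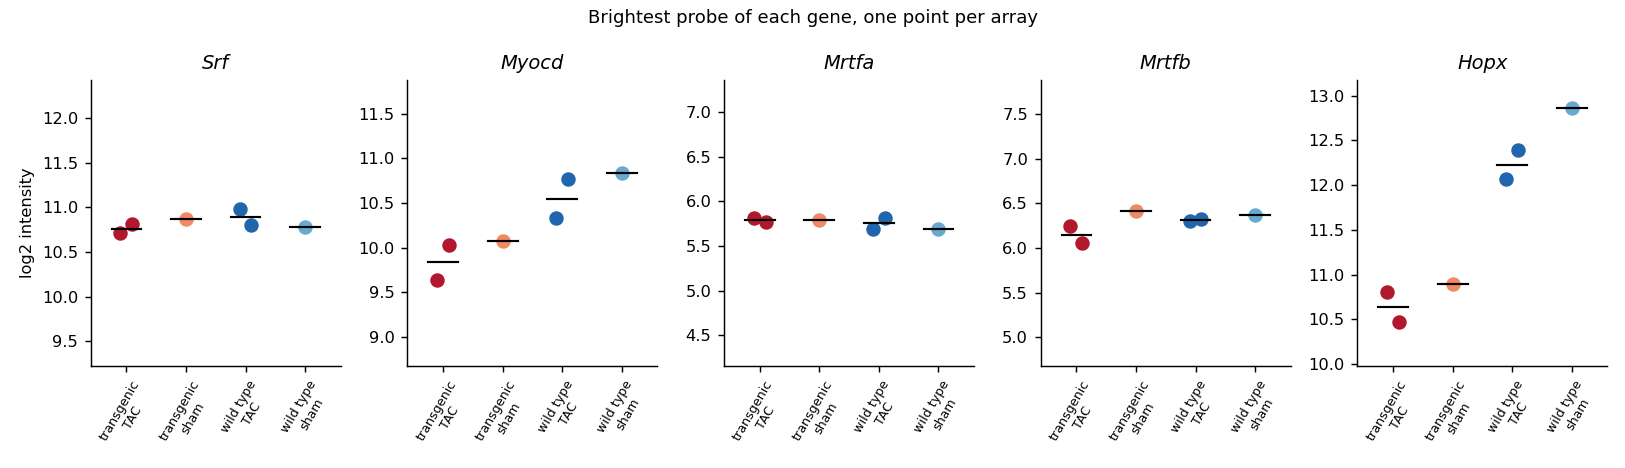
Log2 intensity (vertical axis) of the brightest probe of each gene in the 4 groups, with 1 point per array and a bar at the group mean; every panel spans the same range of log2 units. Hopx and Myocd lie lower in all transgenic arrays than in all wild-type arrays, while Srf, Mrtfa and Mrtfb overlap between genotypes.

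Myocd, the coactivator gene (chr11:65173608-65269989), was lower in transgenic hearts by all of its probes but did not pass the test. Its tested probe stood at 9.64 and 10.03 in the transgenic TAC arrays and 10.07 in the transgenic sham array, against 10.33 and 10.77 in the wild-type TAC arrays and 10.84 in the wild-type sham array. The intensities were 799.6, 1049 and 1077 in transgenic hearts, against 1286, 1743 and 1831 in wild-type hearts. The genotypes did not overlap, and transgenic sham and wild-type TAC 1 were the nearest arrays across them. The group order was that of Hopx, from transgenic TAC (9.84) to wild-type sham, with wild-type TAC at 10.55. The log2 difference was -0.73 ± 0.16 (95% interval -1.10 to -0.36), a fold of 0.604, with an adjusted p of 0.0988 and an unadjusted p of 0.00152 in limma. It passed without transgenic TAC 2 (-0.84, adjusted p = 0.0200) and with array weights (-0.76, adjusted p = 0.0113), and in no other setting tried. After TAC alone the difference was -0.71 ± 0.22 (adjusted p = 0.594), and the sham pair differed by -0.77 without a test.

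All 5 Myocd probes lay above the filter. A second bright probe stood at 635.6, 821.4 and 900.0 in transgenic hearts, against 910.4, 1356 and 1343 in wild-type hearts, a difference of -0.61 ± 0.18. The 3 dim probes had intensities of 60.4 to 87.9 in transgenic and 70.3 to 111.6 in wild-type hearts, beside an array median of 56.3. Their differences were -0.36 ± 0.12, -0.28 ± 0.09 and -0.21 ± 0.10, on a scale from which no background was subtracted here. Each of the 5 probes separated the 3 transgenic from the 3 wild-type arrays in the same direction, as did 8.00% of the 17442 annotated probes above the filter. The 5 probes read the same 6 RNA samples and are not independent. Tested as single probes, they had adjusted p between 0.159 and 0.551, whereas the bright Hopx probe had 0.00429. Among tested genes, 2 of 4 members were without overlap and lower in transgenic hearts, where 8.55% of all genes were.

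**Figure D2:**
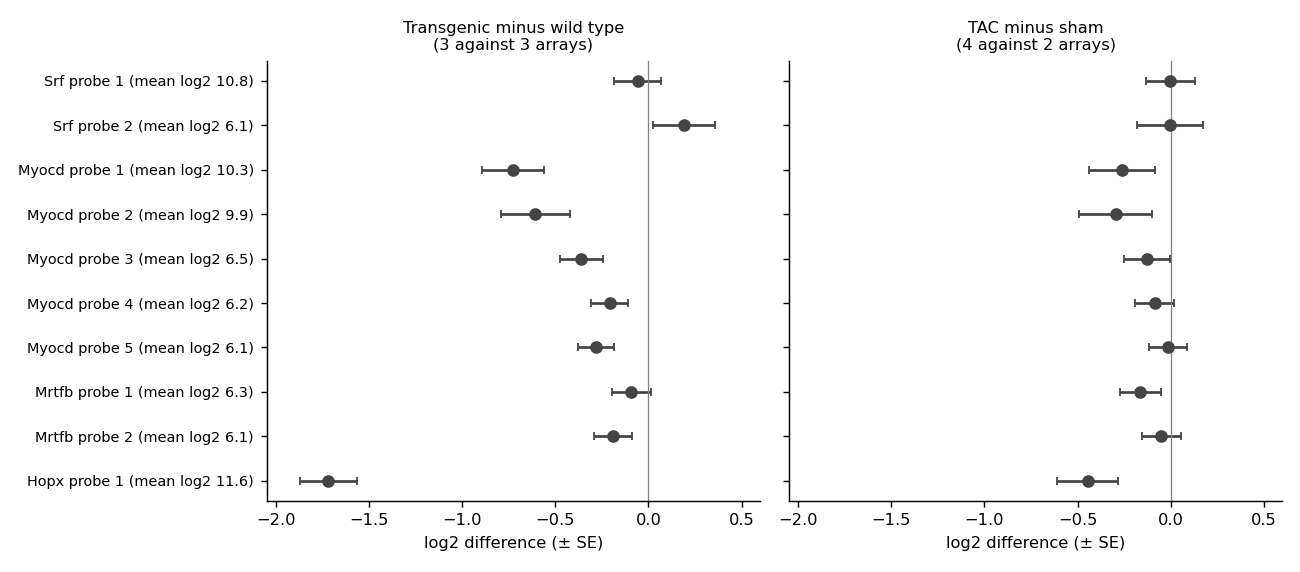
Log2 difference (horizontal axis, ± SE) of each of the 10 member probes above the filter, for transgenic minus wild type (left) and TAC minus sham (right), fitted with every annotated probe on its own. The Hopx probe at -1.72 and the 5 Myocd probes at -0.73 to -0.21 lie left of 0 between genotypes, while the 2 Srf probes lie on either side of it.

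Srf itself (chr17:46546838-46558267) did not differ between genotypes beyond its spread. The tested probe stood at 10.72 and 10.81 in the transgenic TAC arrays and 10.87 in the transgenic sham array, against 10.99 and 10.80 in the wild-type TAC arrays and 10.78 in the wild-type sham array. The 6 values lie close together and the genotypes overlap, with the highest and the lowest value both in TAC arrays. The difference was -0.06 ± 0.12 (adjusted p = 0.913), and its 95% interval of -0.34 to 0.22 leaves room for modest changes either way. The second Srf probe was dim, at 58.3 to 87.5 in transgenic and 53.7 to 72.7 in wild-type hearts, and gave 0.19 ± 0.17.

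The MRTF genes were near background. The single Mrtfa probe, for the actin-responsive coactivator MRTF-A (chr15:81012281-81190736), had intensities of 54.6 to 56.2 in transgenic and 51.5 to 56.1 in wild-type hearts, at or below the array median, and was not tested. Mrtfb, for MRTF-B (chr16:13256056-13417529), had a tested probe at 6.24, 6.06 and 6.41 in transgenic TAC 1, transgenic TAC 2 and transgenic sham, against 6.30, 6.32 and 6.37 in wild-type TAC 1, wild-type TAC 2 and wild-type sham. The transgenic values spread around the wild-type ones, with a difference of -0.09 ± 0.10 (adjusted p = 0.801). A second Mrtfb probe gave -0.19 ± 0.10 with overlapping genotypes, and the remaining one lay below the filter. At these intensities a change in either gene may not be detectable on these arrays.

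TAC against sham over both genotypes asks whether pressure overload moved these genes. None of the 4 tested members passed in limma, where 0.00896% of genes (1 of 11166) did. At an unadjusted p under 0.05 there was 1 of 4 members, against 1033 of 11166 genes. That member was Hopx, which stood lower after TAC by -0.45 ± 0.16 (4 TAC against 2 sham arrays, unadjusted p = 0.0198, adjusted p = 0.439). Within each genotype both TAC arrays lay below the sham array, by a mean of -0.26 in transgenic and -0.64 in wild-type hearts. The transgenic and wild-type sham arrays differed more from each other than either did from its own TAC arrays. The transgenic sham array was low in Xist (5.41), while both transgenic TAC arrays were high (10.36 and 11.03). Within transgenic hearts surgery and Xist level therefore cannot be told apart for any gene. The tested Myocd probe gave -0.26 ± 0.17 (adjusted p = 0.689), with both TAC arrays below the sham array in each genotype. By every other Myocd probe a wild-type TAC array lay above the wild-type sham array. Their mean TAC minus sham differences in wild-type hearts ran from -0.27 to 0.017. In transgenic hearts both TAC arrays lay below the sham array by all Myocd probes.

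Srf gave a TAC difference of -0.00 ± 0.13 (adjusted p = 0.998, 95% interval -0.30 to 0.29). Both transgenic TAC arrays lay below the transgenic sham array (a mean of -0.11), and both wild-type TAC arrays lay above the wild-type sham array (0.11). The tested Mrtfb probe was lower in 4 of 4 TAC arrays than in both sham arrays (-0.16 ± 0.11, adjusted p = 0.696), and 8.16% of genes had TAC arrays below sham arrays in this way. Its value was -0.061 with the transgenic sham array left out. The second Mrtfb probe above the filter overlapped between surgeries (-0.05 ± 0.11), with 0.05 within transgenic and -0.15 within wild-type hearts.

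The difference of the TAC responses between genotypes was fitted for the same genes, with each lone sham array assumed to vary like the TAC arrays. It was 0.38 ± 0.32 for Hopx, 0.06 ± 0.39 for Myocd, -0.20 ± 0.23 for Mrtfb and -0.22 ± 0.29 for Srf, all with an adjusted p of 1.00. None of 4 members and none of 11166 genes (0.00%) passed in limma, with 0 members and 183 genes at an unadjusted p under 0.05. The SEs of 0.23 to 0.39 limit this comparison to large differences. Xist itself gave 7.85 ± 2.23 here, so TAC responses and Xist level are mixed in this comparison.

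Partners and targets of SRF and HOPX were described from lists of known biology. Among 15 tested of 22 genes of actin and MRTF signalling, 10 were higher and 5 lower in transgenic hearts (median log2 difference 0.10, against -0.01 over all 11166 genes), and 1 passed. With 1 array left out this median ran from -0.0021 (transgenic TAC 2) to 0.15 (transgenic TAC 1). At its lowest it came near the -0.01 of all genes in the fit of all arrays. The gene that passed was Abra, whose protein binds actin and promotes MRTF activity in striated muscle. It stood at 11.76 and 11.94 in transgenic TAC and 11.20 in transgenic sham arrays, against 10.83 and 10.37 in wild-type TAC and 10.31 in the wild-type sham array. All transgenic values lay above all wild-type values, and Abra rose 2.19-fold (1.13 ± 0.15, adjusted p = 0.0121). The call rested on 4 of the arrays: its adjusted p became 0.0675 when transgenic sham was left out, 0.0683 for wild-type sham, 0.0524 for wild-type TAC 1 and 0.0647 for wild-type TAC 2. Without both arrays of low Xist it was 0.936. The next genes by p were the LIM kinase gene Limk2 (0.40 ± 0.15), the cofilin gene Cfl2 (0.50 ± 0.20) and the actin-binding phosphatase regulator gene Phactr1 (-0.39 ± 0.17), with adjusted p of 0.354 to 0.416.

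None of 16 tested SRF partner genes passed between genotypes in limma, with 7 higher, 9 lower and a median of -0.02. At an unadjusted p under 0.05 there were 3 of 16, against 1289 of 11166 genes. Fhl2, a LIM cofactor that binds SRF, stood at -0.82 ± 0.17 (adjusted p = 0.0765) and Csrp2, a LIM protein of smooth muscle, at -0.70 ± 0.18 (adjusted p = 0.143). Fhl1 was at 0.50 ± 0.17 and the MADS-box factor gene Mef2c at 0.27 ± 0.14. In limma Fhl2 passed with no filter on dim probes (adjusted p = 0.0403) and with array weights (0.0150). Csrp2 (0.0308) and Fhl1 (0.0203) also passed with array weights. Of 8 tested HOPX partner genes none passed in limma (1 at an unadjusted p under 0.05), with 6 higher, 2 lower and a median of 0.16. The inducible chaperone gene Hspa1a stood at 1.09 ± 0.29 (adjusted p = 0.149), the chaperone gene Hspa8 at 0.17 ± 0.10, the deacetylase gene Hdac3 at 0.17 ± 0.13 and the cardiac factor gene Gata4 at 0.23 ± 0.13. By the median over probes Hspa1a was at 0.16 and Hspa8 at 0.84, and with either sham array left out Hspa1a was at 0.56.

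Among the lists of SRF targets 3 genes passed between genotypes over both surgeries. Of 16 tested smooth muscle targets 11 were lower and 5 higher (median -0.26), and 1 passed, smooth muscle actin Acta2, which fell by 1.67 ± 0.23 (adjusted p = 0.0118). It stood at 11.40 and 11.77 in transgenic TAC and 11.87 in transgenic sham arrays, against 13.91 and 13.13 in wild-type TAC and 13.01 in the wild-type sham array, without overlap. By the median over its probes Acta2 had an adjusted p of 0.195, and without both arrays of low Xist 0.0924. The visceral actin gene Actg2 (-1.06 ± 0.22, adjusted p = 0.0771), Myl9 (-0.85 ± 0.25) and the smoothelin gene Smtn (-0.60 ± 0.18) had adjusted p up to 0.203. The list median ran from -0.39 (with transgenic TAC 2 left out) to -0.12 (with transgenic TAC 1 left out). With wild-type TAC 1 left out, the array in which Acta2, Actg2 and Myl9 were brightest, the median was -0.17, Acta2 -1.37, Actg2 -0.86 and Myl9 -0.64. After TAC alone Acta2 (-1.94 ± 0.25, adjusted p = 0.0296) and Actg2 (-1.43 ± 0.19, adjusted p = 0.0318) passed in limma. In that comparison 0.0627% of all genes passed as lower. With the median over a gene's probes, or with every probe tested, 0 genes passed as lower there, so the Acta2 and Actg2 calls were lost. Myl9 differed by -1.27 ± 0.21 after TAC (adjusted p = 0.0953) and by 0.01 in the sham pair, without a test.

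Of 20 tested heart muscle targets none passed between genotypes in limma (6 at an unadjusted p under 0.05), with 12 higher, 8 lower and a median of 0.03. Acta1, skeletal alpha-actin, stood at -0.41 ± 0.08 (adjusted p = 0.0555) and the muscle creatine kinase gene Ckm at -0.33 ± 0.10. Acta1 lay near the threshold. It passed in limma with no filter on dim probes (adjusted p = 0.0360), a stricter filter (0.0450) and array weights (0.00868). Of 18 cytoskeletal targets 1 passed, beside a list median of -0.035. The actin-disassembly gene Wdr1 (0.38), the calponin gene Cnn2 (-0.25) and the coronin gene Coro1b (-0.25) came next by p and did not pass. Pdlim3, an actinin-binding LIM protein gene, was the 1 that passed, and it fell by 1.31 ± 0.23 (adjusted p = 0.0363). Leaving out transgenic TAC 1 gave it an adjusted p of 0.0504, leaving out wild-type TAC 1 gave 0.146, and leaving out wild-type TAC 2 gave 0.196. The Pdlim3 call was also lost without the intensity trend (0.0635), with a stricter filter (0.0609), with the median over probes (0.0641), with every probe tested (0.0740), with Xist as a covariate (0.0900) and without both arrays of low Xist (0.284). The list median ran from -0.21 (transgenic TAC 2 left out) to 0.13 (transgenic TAC 1 left out). After TAC alone Pdlim3 passed as well (-1.67 ± 0.21, adjusted p = 0.0286 in limma). That call too was lost with the median over a gene's probes and with every probe tested, where 0 genes passed as lower. Of 13 growth factor response genes, Srf included, 9 were higher and 4 lower (median 0.31), and the zinc finger gene Egr1 passed (0.97 ± 0.17, adjusted p = 0.0408). Its relatives Egr2 (0.84) and Egr3 (1.01) and the phosphatase gene Dusp6 (0.52) did not pass. Egr1 kept its call when transgenic TAC 2 was left out, and had an adjusted p of 0.0536 when that array was transgenic TAC 1, 0.350 for transgenic sham, 0.0902 for wild-type TAC 1, 0.256 for wild-type TAC 2 and 0.345 for wild-type sham. The same 6 other settings also ended its call, with adjusted p of 0.0655 without the trend, 0.0658 with the stricter filter, 0.0704 with the median, 0.0794 with every probe tested, 0.109 with Xist as a covariate and 1.00 without the arrays of low Xist. The median of that list became 0.53 with wild-type TAC 1 left out and 0.03 with wild-type TAC 2 left out. Among 6 relatives of the MADS-box and vestigial-like cofactor genes 5 were higher, and Vgll2, a cofactor of TEAD factors in skeletal muscle, rose (2.41 ± 0.19, adjusted p = 0.000727).

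After TAC over both genotypes the heart muscle targets held the 1 gene that passed in the whole table, Acta1 (1.09 ± 0.08, adjusted p = 0.00403). It was 13.95 and 13.96 in transgenic TAC and 14.38 and 14.33 in wild-type TAC arrays, against 12.85 in transgenic sham and 13.28 in wild-type sham arrays. All 4 TAC values lay above both sham values. The call was lost when an array was left out that was a transgenic sham (adjusted p = 0.118), wild-type sham (0.238), wild-type TAC 1 (0.0798) or wild-type TAC 2 (0.0869) array, and also without the intensity trend (0.121), with Xist as a covariate (0.0758) and without both arrays of low Xist (1.00). Of that list 13 of 20 were higher after TAC (median 0.09), beside 14 of 16 smooth muscle (0.09), 16 of 18 cytoskeletal (0.30) and 9 of 13 growth factor response genes (0.30). The median over all genes was -0.01. Among SRF partners 8 of 16 were higher (0.02), of HOPX partners 3 of 8 (-0.055), and of actin and MRTF signalling genes 12 of 15 (0.16). The smooth muscle median was -0.026 with the wild-type sham array left out, 0.33 with the transgenic sham array left out and 0.51 without both arrays of low Xist, and that of the HOPX partners ran from -0.18 (wild-type sham left out) to 0.069 (transgenic sham left out). Within these lists Nppb (0.72 ± 0.09), Nppa (0.82 ± 0.13), Fhl1 (0.84 ± 0.18), Egr2 (0.90 ± 0.21) and Ccn2 (1.09 ± 0.25) had the smallest p after Acta1, with adjusted p between 0.101 and 0.274. TAC minus sham within transgenic hearts was 0.40 for Fhl1 and 0.52 for Nppa, each set against 1 sham array. In wild-type hearts it was 1.28 and 1.13, also against 1 sham array. In transgenic hearts this step also ran from low to high Xist. The 4 TAC arrays lay at 14.33 to 14.47 in Nppa and 13.71 to 14.15 in Fhl1. The sham arrays stood at 13.87 (transgenic) and 13.30 (wild type) in Nppa, and at 13.65 and 12.56 in Fhl1. These values lie near the top of the intensity range, and whether such bright probes are compressed was not tested.

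**Figure D3:**
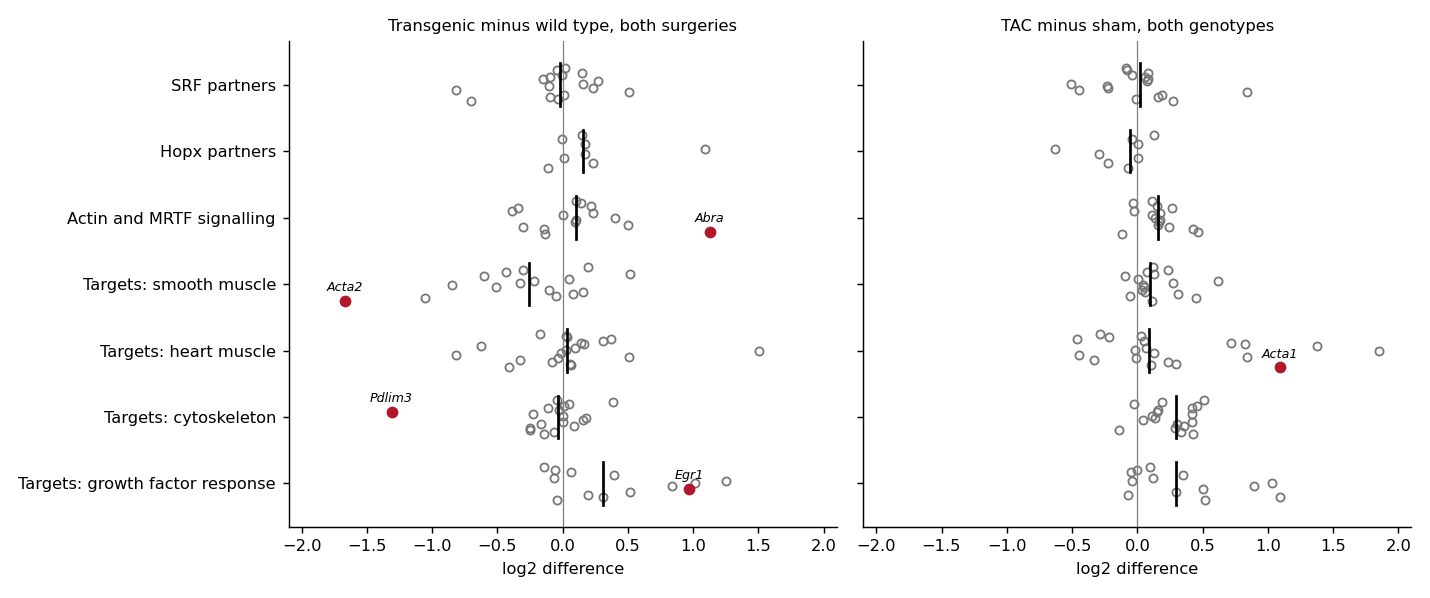
Log2 difference (horizontal axis) of each tested gene of 7 lists, for transgenic minus wild type (left) and TAC minus sham (right); filled named points passed at an adjusted p below 0.05, open points did not, and a black line marks the list median. Abra and Egr1 passed as higher, and Acta2 and Pdlim3 as lower, in transgenic hearts, and Acta1 passed as higher after TAC.

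Myocd is also made in smooth muscle, so markers of smooth muscle and pericytes were set beside it. Of 12 markers 11 were tested, and 11 of 11 were lower in transgenic hearts (median -0.43), of which 1, Acta2, passed. At an unadjusted p under 0.05 in limma there were 4 of 11. Their summed intensity was 8482 to 12901 in transgenic hearts, against 18272 to 26586 in wild-type hearts. Without Acta2, 10 of 10 were lower (median -0.36), with a sum of 5780 to 9406 in transgenic and 9569 to 11220 in wild-type hearts. Over all tested genes 47.6% were higher in transgenic hearts. Acta2, Tagln, Myh11, Smtn and Lmod1 are also in the list of smooth muscle SRF targets above. The marker count and the target count are therefore not independent. The calponin gene Cnn1 lay below the filter, and the smooth muscle myosin gene Myh11, a defining marker, stood at 7.69, 8.41 and 8.51 in transgenic TAC 1, TAC 2 and sham arrays, against 9.17, 8.62 and 8.35 in wild-type TAC 1, TAC 2 and sham arrays, with overlap. In whole hearts fewer cells of a type and less RNA per cell cannot be told apart, and the part of these cells in the Myocd difference was not tested.

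Heart muscle markers had a median difference of 0.02, with 5 of 9 higher and 4 lower. The lowest was Ryr2 (-0.28 ± 0.11), and 1 of the 9 was at an unadjusted p under 0.05. Their summed intensity was 137656 to 150157 in transgenic against 137682 to 144792 in wild-type hearts. Endothelial markers were lower in 6 of 7 (median -0.23). Fibroblast markers were higher in 8 of 8 (0.17) and macrophage markers in 8 of 8 (0.24), and none of these passed in limma, with 0 endothelial, 2 fibroblast and 1 macrophage marker at an unadjusted p under 0.05. Conduction markers, a part of the heart in which Hopx is made, had a median of 0.07 with 3 of 5 higher, and none passed in limma. They went both ways: Cntn2 (-0.39) and Tbx3 (-0.42) were lower, and Gja5 (0.07), Shox2 (0.12) and Scn10a (0.35) higher. Cntn2 did not overlap between genotypes, as 8.55% of all genes did not while lower. Hcn4 and Isl1 lay below the filter. Atrial markers had a median of -0.29 with summed intensities of 16290 to 26267 in transgenic and 10964 to 30406 in wild-type hearts, sums in which Nppa is by far the brightest gene. Wild-type TAC 1 stood apart in 3 atrial genes: the sarcolipin gene Sln was at 10.50 there and at 5.95 to 8.09 on the other arrays. The atrial light chain genes Myl7 (9.09, against 5.44 to 7.15) and Myl4 (12.48, against 8.85 to 10.80) were also highest there. With wild-type TAC 1 left out the genotype difference was -1.85 for Hopx (adjusted p = 0.00791) and -0.86 for Myocd (adjusted p = 0.160). Blood (-0.035), lymphocyte (0.01), adipocyte (-0.19) and skeletal muscle (-0.13) markers had 2 to 4 tested genes each, none of which passed in limma, with 1 skeletal muscle marker at an unadjusted p under 0.05.

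**Figure D4:**
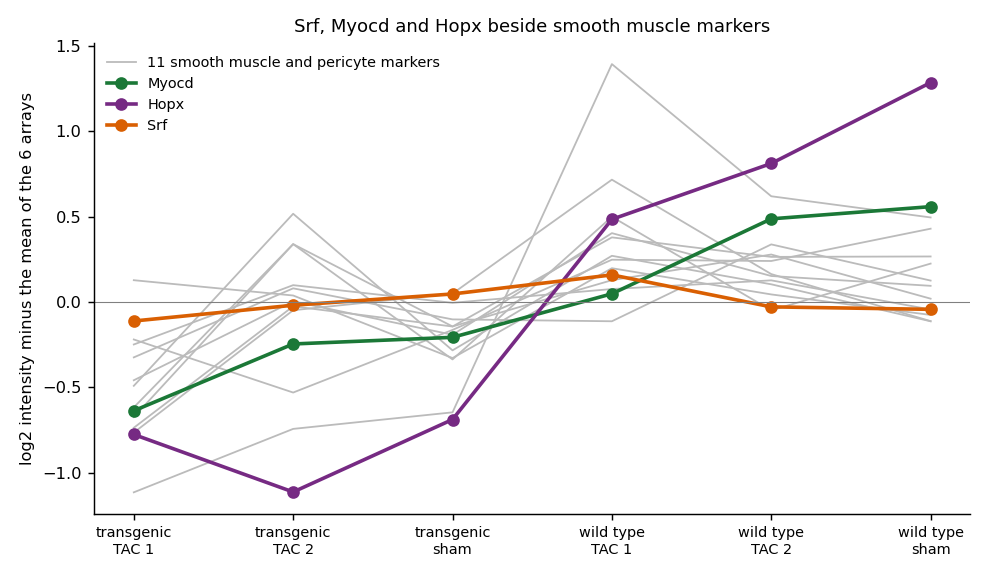
Log2 intensity minus the mean of the 6 arrays (vertical axis) for Myocd, Hopx and Srf (coloured lines) and for 11 smooth muscle and pericyte markers (grey lines) on each array. Myocd and Hopx sit below 0 in all 3 transgenic arrays and above it in all 3 wild-type arrays, Srf stays near 0, and the grey line that reaches highest in wild-type TAC 1 is Acta2.

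Genes whose pattern was most like that of each member were found by Pearson r over the 6 arrays among the other 11165 tested genes. With 6 arrays from 2 genotypes such values are a description and carry no p. Hopx was matched most closely by the amino acid transporter gene Slc38a3 and the dopamine beta-hydroxylase gene Dbh (r = 0.998 each), then Mrps9 (0.996), Wfikkn2 (0.994) and N6amt1 (0.992). Of these, Slc38a3, Dbh and Wfikkn2 also passed as lower in transgenic hearts, with log2 differences of -1.25, -0.96 and -0.99. Myocd was matched by Mtx1 (0.996), Kptn (0.995), Ap3m1 (0.994), Mrpl37 (0.993) and Klhdc3 (0.993), none of which passed between genotypes. Srf, whose values varied by an SD of 0.09, was matched by Epn1 (0.975), Zmiz1 (0.972), Usp43 (0.972), Adgrf5 (0.966) and Mtcp1 (0.963). Mrtfb, near background, was matched by Cntln (0.990), Eci1 (0.984), Pdlim4 (0.983), Mov10l1 (0.981) and Mrpl45 (0.976).

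CArG boxes were counted in the promoters of genes that passed between genotypes, as a description of the letters. Of 26 genes that passed as lower in transgenic hearts and had a promoter in the table, 2 held one (7.69%), and of 50 that passed as higher, 0 did. Hopx, shown above, was 1 of these 2. The share over tested genes was 1.76%. Among the lists it was 29.4% of cytoskeletal, 23.8% of heart muscle, 18.2% of growth factor response and 5.88% of smooth muscle targets, in this window only.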

How the data were processed

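RNA of 6 hearts or pools was measured on Illumina arrays; per the labels' protocols, Trizol extraction and DNase I treatment preceded the making of biotinylated cRNA. The deposited table holds 1 intensity per probe on a linear scale; the sorted columns are nearly the same, as after quantile normalization, while the software and any background correction are not given in the sources. No further normalization was applied. A floor of 32 replaced 12 lower values before taking log2. Without background subtraction here, differences of dim probes may be understated. The number of arrays limits the precision.

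Of 45281 probes 34885 had 1 gene symbol, 18 several and 10378 none in the platform annotation; symbols were checked by gene identifier or accession against a RefSeq table of GRCm38.p6. Each of 19053 genes took its brightest probe, and the 11166 above the 50th percentile were tested with lmFit and eBayes with an intensity trend (limma 3.58.1, R 4.3.3), adjusted over all of them. A model of surgery plus genotype (3 residual degrees of freedom) and a fit of 4 groups (2) were used. The steps were tested on simulated data. Named list genes are those past a test and the 4 of smallest p per list and comparison; marker lists are given by counts and summed levels. The members and lists were chosen with earlier results of these data known. Alternatives were the trend, filters, probe rules, background, normalization, array weights, Xist as a covariate, a replicate block and leaving out arrays.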

Additional observations from a re-analysis of the deposited data

How the results depend on the processing

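With 3 arrays a genotype and 1 sham array each, the counts of genes that passed moved with most choices. Between genotypes over both surgeries 106 genes passed, against 44 with a stricter filter, 51 with the median over a gene's probes, 596 with array weights, 54 with Xist as a covariate and 0 without both arrays of low Xist, and between 24 (without either sham array) and 474 (without transgenic TAC 2) with 1 array left out. For TAC the count was 1, against 0 without the intensity trend, with Xist as a covariate or without the arrays of low Xist, 2 with no filter or a stricter one, 126 with array weights, and 0 to 37 with 1 array left out. After TAC 23 genes passed between genotypes, against 8 without the trend, 38 with no filter, 11 with a stricter one, 5 with the median over probes, 9 when every probe was tested, 0 without the arrays of low Xist, and 0 to 191 with 1 array left out. For the difference of the TAC responses the count was 0, against 5 with Xist as a covariate and 0 to 1 with 1 array left out. In the sham pair 116 genes differed by at least 1, against 196 after background subtraction. The cause of these shifts was not tested, other than that fewer arrays or genes entered some fits.

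The Hopx difference between genotypes kept its direction throughout and lost its call with the median over probes (-0.79) and without the arrays of low Xist (-1.43). After TAC it lost its call without the trend (-1.59, adjusted p = 0.110), with the median (-0.66, 0.644), with every probe tested (-1.59, 0.0787), with Xist as a covariate (-1.40, 0.0692) and without the arrays of low Xist (-1.43, 0.515), and ranged from -1.76 to -1.42 with 1 array left out. Myocd between genotypes ranged from -0.86 to -0.61 with 1 array left out, and gained a call with array weights (-0.76). Array weights, with which 596 genes passed, also gave calls in limma to Hspa1a (adjusted p = 0.0106), Egr2 (0.0179), Dusp6 (0.0192), Egr3 (0.0253), Wdr1 (0.0304) and Smtn (0.0418). Values near 0 changed sign. Srf between genotypes was 0.066 with the median and 0.0014 with array weights, and -0.13 to 0.018 with 1 array left out; after TAC it was 0.032 with the median. Its TAC difference was 0.020 with array weights, 0.0006 with Xist as a covariate, 0.20 without the arrays of low Xist, and -0.11 to 0.11 with 1 array left out. With the median the difference of the TAC responses was -0.051 for Myocd, which ranged from -0.16 to 0.28 with 1 array left out, and 0.21 for Mrtfb. With the median Limk2 (-0.026) and Mef2b (-0.090) between genotypes and Tpm3 after TAC (-0.0011) turned. The TAC difference of Mef2d was -0.010 with array weights, -0.015 with Xist as a covariate, -0.15 without the arrays of low Xist and -0.26 to 0.42 with 1 array left out, and that of Hspa1a 0.29 and -1.43 to 0.17. With 1 array left out Actg2 after TAC ranged from -0.11 to 1.01, Smad1 after TAC from -0.0094 to 0.29 and Kdm4a between genotypes from -0.087 to 0.087.

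The deviations of same-numbered TAC arrays from their group means had r = -0.0288 over 11166 genes. With so few arrays this cannot decide whether the replicate numbers mark a pairing, and the main fits used none. In a fit of the 4 TAC arrays alone 25 genes passed without the replicate block and 61 with it, Hopx among them in both. The difference of the TAC responses could not be fitted without both arrays of low Xist or without either sham array.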
